A study of Mus musculus with 4 samples.

Results

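Regions of open chromatin that were called after TGFβ and in neither of the other conditions, and that lie between genes but close to one, are the subject here. The cells were NMuMG, a widely used epithelial cell line derived from the mammary gland of a normal mouse, and their chromatin was profiled by ATAC-seq, in which the Tn5 transposase cuts and tags DNA that nucleosomes leave exposed. The 4 samples, 1 per condition, came from unmodified cells of this line. In complete medium (serum and insulin) the cells received vehicle (acid carrier with albumin) or TGFβ1 at 5 ng per ml for 2 h. In the other experiment serum and insulin were withdrawn for 6 h before vehicle or TGFβ1 at 5 ng per ml was given for 10 min. A label of the starved TGFβ sample states 2 h, and the title, which gives 10 min, was followed. What could be analysed were 3 lists of called peaks: a vehicle list, a TGFβ 2 h list and 1 list for the 10 min experiment, which the labels assign to both starved samples and which therefore belongs to no single treatment.

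A region of the TGFβ 2 h list was taken as a member when it overlapped no region of the vehicle or 10 min list, touched no transcription start site (TSS) ± 1000 bp, and had its centre outside every protein-coding gene and at most 50 kb from a protein-coding TSS. Members were thus chosen by presence and absence of called peaks in the 3 lists and by position, and their share in these lists is fixed by that choice. The criteria were met by 3693 of the 38532 regions of the TGFβ 2 h list (9.58%). Across that list, 35.9% of regions were in neither other list, and the 3693 members make up 26.7% of those 13819. Among the 8597 regions of the list that lie between genes and within 50 kb of a TSS, 43.0% were members, 32.0% were in all 3 lists, 20% were shared with the 10 min list and 5.03% with the vehicle list. Absence from a list means that no peak was called there, and the lists hold no read counts. With 1 list per condition there was no replicate, so the intervals given are 95% Wilson intervals for a share and 95% Newcombe intervals for a difference of shares in percentage points. They cover the counting of regions alone and assume that regions are independent, which neighbours are not.

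TGFβ is a secreted factor whose receptors phosphorylate SMAD proteins, which enter the nucleus and bind short DNA letters, usually beside other factors. AP-1, a dimer of FOS and JUN proteins, is a frequent partner at enhancers, which are stretches of open DNA away from promoters that can raise transcription of a gene at a distance. In mammary epithelium TGFβ halts growth and drives the epithelial-to-mesenchymal transition, in which cells lose junctions and gain matrix contacts. CTCF, another DNA-binding protein, marks the borders of chromatin loops.

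The DNA of a few members shows what was searched for. Capitals in the next 3 sequences mark AP-1 letters (TGACTCA or, on the other strand, TGAGTCA) and SMAD letters (CAGACA or TGTCTG), the SMAD-binding element. They are the members at the highest score whose nearest gene is in a fixed gene list and that hold both motifs within 100 bp of the centre. Each is 200 bp about the centre, in mm9 coordinates on the plus strand. Itgb1 encodes the integrin β1 chain, Adamts1 a secreted matrix protease and Klf4 a transcription factor of epithelial cells. The closest pair of matches was 10 bp apart near Itgb1, 26 bp near Adamts1 and 52 bp near Klf4.
Itgb1, 18718 bp upstream, chr8:131190736-131190935: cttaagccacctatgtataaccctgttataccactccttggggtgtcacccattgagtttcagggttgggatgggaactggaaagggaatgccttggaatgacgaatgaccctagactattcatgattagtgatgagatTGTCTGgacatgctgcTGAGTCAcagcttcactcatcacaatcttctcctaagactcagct
Adamts1, 24212 bp upstream, chr16:85827470-85827669: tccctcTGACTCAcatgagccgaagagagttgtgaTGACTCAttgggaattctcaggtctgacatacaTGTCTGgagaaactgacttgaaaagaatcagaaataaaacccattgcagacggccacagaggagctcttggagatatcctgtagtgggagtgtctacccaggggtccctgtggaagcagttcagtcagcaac
Klf4, 46532 bp upstream, chr4:55591779-55591978: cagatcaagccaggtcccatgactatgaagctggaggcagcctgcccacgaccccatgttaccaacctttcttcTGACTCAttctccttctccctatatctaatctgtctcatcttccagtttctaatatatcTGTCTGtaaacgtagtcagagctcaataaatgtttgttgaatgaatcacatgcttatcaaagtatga
Below the highest score or with matches farther out, 2 members near listed genes held 2 or more matches of both motifs, and 300 bp of each are shown with the same capitals. They, and the further examples below, were chosen after their values were seen. Mmp13 encodes collagenase-3 and Cyr61 a matrix-bound signalling protein induced by YAP.
Mmp13, 13929 bp upstream, chr9:7258435-7258734: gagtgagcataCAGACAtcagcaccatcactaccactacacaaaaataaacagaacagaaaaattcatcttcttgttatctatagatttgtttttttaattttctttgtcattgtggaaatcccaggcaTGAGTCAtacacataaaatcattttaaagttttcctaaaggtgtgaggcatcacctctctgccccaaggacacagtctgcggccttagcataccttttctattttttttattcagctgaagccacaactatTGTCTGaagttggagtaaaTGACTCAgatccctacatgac
Cyr61, 16518 bp upstream, chr3:145329317-145329616: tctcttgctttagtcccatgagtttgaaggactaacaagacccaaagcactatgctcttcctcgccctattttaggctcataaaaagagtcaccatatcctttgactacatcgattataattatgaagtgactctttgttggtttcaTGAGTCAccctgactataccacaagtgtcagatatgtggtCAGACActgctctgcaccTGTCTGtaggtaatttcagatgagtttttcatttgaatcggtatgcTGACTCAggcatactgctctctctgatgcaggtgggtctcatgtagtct
Not every strong member carried these letters. A member at the highest score 38167 bp upstream of Smad5, the gene of a SMAD of the BMP branch, had neither motif in 200 bp, which stand here in lower case for that reason.
Smad5, chr13:56766104-56766303: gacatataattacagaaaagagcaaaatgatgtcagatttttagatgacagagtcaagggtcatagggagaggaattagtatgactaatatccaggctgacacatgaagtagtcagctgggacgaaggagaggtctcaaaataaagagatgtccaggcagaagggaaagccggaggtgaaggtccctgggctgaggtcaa
A member of 1483 bp near Klf6 met the same criterion, but its centre fell between its 2 merged intervals, so its DNA is not shown. Such centres outside every deposited interval were rare, at 84 of 3693 members (2.27%).

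GTCTAGAC, a palindrome of SMAD-binding letters, occurred in 39 members (1.06%, 0.773 to 1.44%). The 3 at the highest score that hold it within 75 bp of the centre, widest first, are shown as 150 bp with the palindrome in capitals. Csf1 encodes a macrophage growth factor, Terf1 a telomere-binding protein and Sox11 a transcription factor of embryonic tissues.
Csf1, 16047 bp upstream, chr3:107579359-107579508: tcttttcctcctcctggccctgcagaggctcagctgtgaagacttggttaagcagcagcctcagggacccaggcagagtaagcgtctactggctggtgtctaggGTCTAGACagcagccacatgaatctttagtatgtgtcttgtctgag
Terf1, 20699 bp upstream, chr1:15774965-15775114: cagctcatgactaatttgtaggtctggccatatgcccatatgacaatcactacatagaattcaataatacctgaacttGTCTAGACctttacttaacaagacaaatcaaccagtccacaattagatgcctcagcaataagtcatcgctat
Sox11, 37400 bp upstream, chr12:28064899-28065048: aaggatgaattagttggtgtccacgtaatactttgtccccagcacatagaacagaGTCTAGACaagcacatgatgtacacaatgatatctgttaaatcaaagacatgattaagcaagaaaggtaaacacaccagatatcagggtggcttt
The single member near a listed gene with the CTCF motif within 75 bp of its centre is shown as 150 bp with the motif in capitals. It lies beyond Ctgf, which encodes connective tissue growth factor, and is 152 bp wide.
Ctgf, 29489 bp downstream, chr10:24345000-24345149: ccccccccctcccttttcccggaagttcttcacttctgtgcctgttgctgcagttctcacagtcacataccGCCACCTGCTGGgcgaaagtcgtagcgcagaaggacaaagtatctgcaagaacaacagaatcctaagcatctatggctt

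The members were narrow and low in score compared with regions of the same position in all 3 lists (the shared regions). Their median width was 265 bp (quartiles 201 and 361 bp, range 150 to 1818 bp), against 478 bp in the shared regions. The score is the authors' scaled irreproducible discovery rate, a rank-agreement measure that runs from 540 to a ceiling of 1000. Its median was 700 (quartiles 613 and 834) against 1000, and 359 members (9.72%) reached the ceiling against 67.3% of shared regions. A single summit was listed for 65.9% of members and 24.6% of shared regions. These traits were not particular to the members. TGFβ-only regions inside genes and beyond 50 kb had median widths of 266 and 270 bp and median scores of 701 and 717. Of these regions, 8.77 and 10.6% reached the ceiling, and 64.7 and 65.6% had a single summit. Width and score come from the list that chose the members, so these values describe them and carry no test. At the lower edge, 16 members were 150 bp wide and 902 were under 200 bp.

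Positions were spread through the 50 kb. The median distance to the nearest protein-coding TSS was 17628 bp (quartiles 8620 and 30255 bp), with 12.5% of members within 5 kb, 29.6% within 10 kb and 55.6% within 20 kb. The share of members among regions of the same position was 39.7% (36.9 to 42.5%) at 1 to 5 kb and 45.4% (42.6 to 48.2%) at 30 to 40 kb. In the same steps the share with the 10 min list went from 24.1% (21.8 to 26.7%) to 18.6% (16.5 to 20.9%). The members just inside the limit were chr1:14350137-14350420, 49998 bp upstream of Eya1 with a score of 810, and chr1:40912299-40912505, 49956 bp downstream of Tmem182 with a score of 587. Just outside were chr2:145482306-145482809, 50004 bp downstream of Slc24a3 with a score of 1000, and chr6:114297799-114298031, 50015 bp upstream of Hrh1 with a score of 708.

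**Figure D1:**
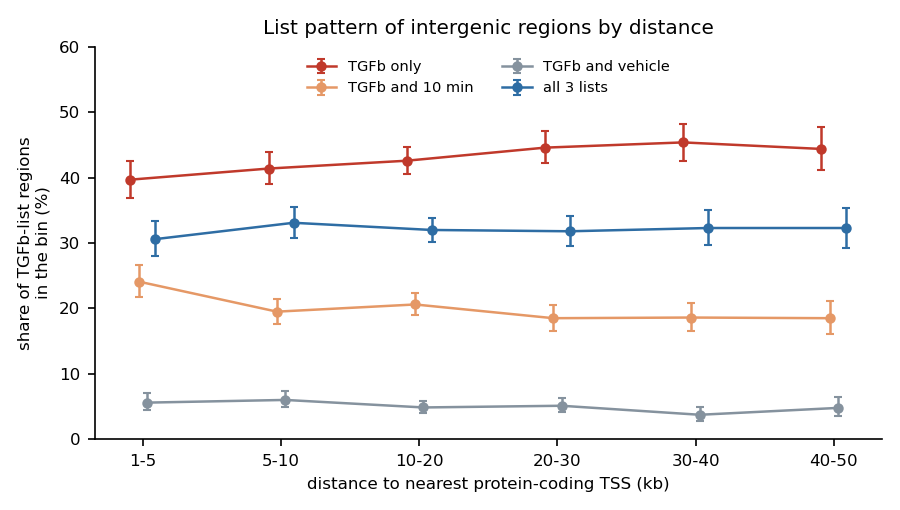
Share (%) of the 4 list patterns among intergenic regions of the TGFβ 2 h list, by distance (kb) to the nearest protein-coding TSS. Points are shares and bars 95% Wilson intervals. The members (TGFb only) lie between 39.7 and 45.4% in every distance step and above the regions in all 3 lists.

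Upstream of its nearest gene lay 67.1% of members, against 69.5% of shared regions, a difference of -2.4 points (-4.7 to -0.1). That difference was small and its interval held 0 under 6 other settings. TGFβ-only regions beyond 50 kb were upstream in 55.6%. The rule leaves out centres inside genes, where TGFβ-only regions were upstream in 29.3%, so the upstream share of members depends in part on the rule. By annotation, 95.4% of members had their centre in no gene of any kind, 89 (2.41%) in a lincRNA and 72 (1.95%) in another processed transcript. On chromosome X, 56.6% (49.7 to 63.2%) of intergenic regions within 50 kb were members, the highest share of any chromosome, and on chromosome 12, 39.0% (33.5 to 44.8%), the lowest.

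Few members were near misses of the overlap criterion. A deposited vehicle or 10 min interval under 150 bp, dropped when the lists were refined, overlapped 33 members (0.894%), and a refined region of either list came within 1000 bp of 65 (1.76%). The median gap to the nearest region was 19046 bp for the vehicle list and 14038 bp for the 10 min list. Members also stood apart from each other. Another member lay within 10 kb of 622 (16.8%), against 20.3% for shared regions among themselves. Runs of 4 members, each under 10 kb from the next, occurred 4 times. They lay beside Krt20 and Krt23 (chr11:99323061-99334023), the genes of 2 keratins, beside Tprg, beside Ifnb1 and Gm12597, and beside Gpm6b.

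SMAD letters were more frequent in the members than in the shared regions. Within 200 bp of the centre (401 bp in all), CAGACA or its reverse complement was found in 42.5% of members and 34.1% of shared regions, a difference of 8.4 points (6.0 to 10.7). At least 2 matches were held by 12.1% against 7.99% (4.1 points, 2.6 to 5.5). Windows moved 10 kb along the chromosome and clear of every list held SMAD letters in 33.8% (32.3 to 35.4%) around members and in 34.6% (32.8 to 36.5%) around shared regions. The interval of the shared regions (32.4 to 35.9%) overlapped that of their nearby DNA, and the interval of the members (40.9 to 44.1%) lay above that of theirs. The palindrome, in 1.06% of members, was in 0.545% of shared regions (0.5 points, 0.1 to 1.0) and 0.370% of the moved windows around members.

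Mean GC content was 47.1% in members and 49.8% in shared regions. With the shared regions weighted to the GC content of the members, the difference was 8.1 points (5.6 to 10.5). In each of 5 GC strata the members had the higher SMAD share, from 37.4 against 30% under 40% GC to 41.2 against 30.6% at 55% or more. They had it on 18 of 20 chromosomes, the exceptions being chromosome 1 (41.2 against 41.3%) and chromosome 7 (37.8 against 39.0%). Windows with 4 or more matches were 27 of 3693 (0.731%). The most repeated was chr10:110964718-110965847 near Phlda1, an immediate-early gene, with 14 SMAD matches.

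AP-1 letters behaved otherwise and depended on the score. They were in 36.6% of members and 40.8% of shared regions (-4.2 points, -6.6 to -1.8), both far above the 7.11% and 7.18% of moved windows. That difference also depended on window and width. It was -0.5 points (-2.8 to 1.8) within 100 bp of the centre and -1.3 points (-4.5 to 2.0) at a minimum width of 300 bp. Within a score class the order turned. At the ceiling of 1000, 59.1% of the 359 members and 45.6% of the 1852 shared regions had AP-1 letters (13.4 points, 7.8 to 18.9). At 700 to 799 the shares were 35.4% of 755 members and 25.1% of 171 shared regions (10.2 points, 2.5 to 17.1). At 540 to 599 they were 25.6% of 716 and 20.6% of 34 (5.0 points, -11.5 to 15.7), a difference that the 34 shared regions could not resolve. Weighted to the score classes of the members, the shared regions had AP-1 letters in 28.0%, so that the members were higher by 8.7 points (3.9 to 13.0). The sign of the AP-1 difference over all members was thus not its sign when weighted to score classes. Regions at the ceiling cannot be told apart by score, so that class is not matched within itself. The score classes were chosen after the unstratified shares were seen.

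The SMAD difference kept its sign at every score. It was 16.4 points (10.8 to 21.9) at the ceiling, 19.5 points (11.4 to 27.2) at 900 to 999 and 7.7 points (-9.4 to 21.4) at 540 to 599, where its interval held 0. Both motifs together were in 32.9% (28.2 to 37.9%) of members at the ceiling, 17.0% (15.3 to 18.7%) of shared regions at the ceiling and 2.67% of moved windows. For all scores together the members had both in 16.1% and the shared regions in 14.7% (1.4 points, -0.4 to 3.1). Members with SMAD letters had AP-1 letters in 37.9% and members without them in 35.7% (2.2 points, -0.9 to 5.3), so a dependence between the motifs within members was not resolved. Where both occurred, the median gap was 60 bp in 595 members and 72 bp in 406 shared regions, and it was 20 bp or less in 23.4 and 23.6%.

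**Figure D2:**
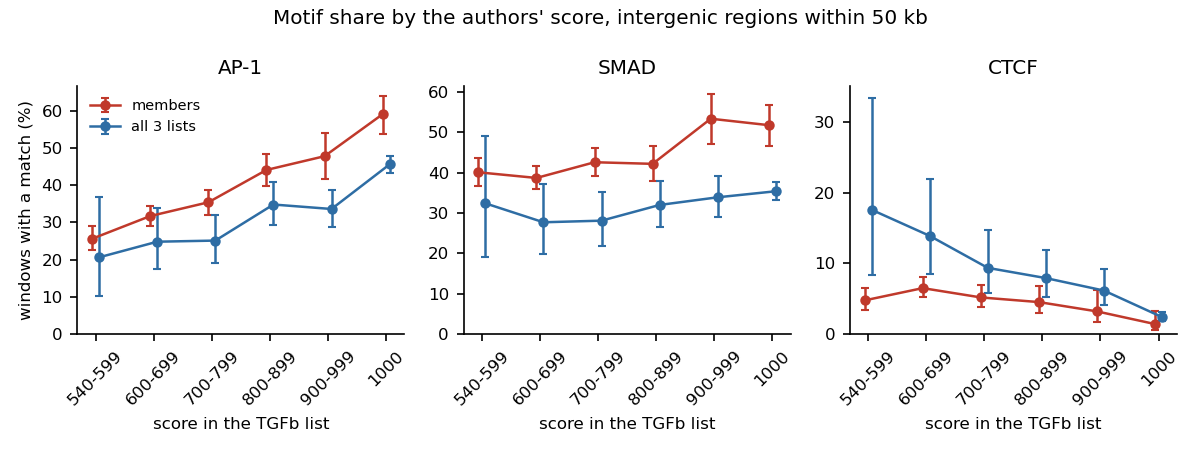
Share (%) of 401 bp windows with AP-1, SMAD or CTCF letters by the authors' score in the TGFβ 2 h list (classes of score, no unit), for members (red) and intergenic regions within 50 kb in all 3 lists (blue). Points are shares and bars 95% Wilson intervals. The AP-1 share rises from class to class in members, from 25.6 to 59.1%, and is highest at 1000 in shared regions too (45.6%), and the red points for AP-1 and SMAD lie above the blue in every class.

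CTCF letters (the core motif of the factor, searched as a pattern that allows alternatives at some positions) were in 4.90% of members, 4.40% of shared regions (0.5 points, -0.5 to 1.5) and 0.171% of moved windows around members. Regions shared with the 10 min list held them in 10.9% (members minus these -6.0 points, -7.7 to -4.4). Among members under 200 bp wide, 11.3% (102 of 902) had CTCF letters, against 0.752% (5 of 665) of those of 400 bp or more. AP-1 letters went the opposite way, with 26.9 and 42.3%. Shared regions had the same order, with CTCF letters in 23.0% (20 of 87) of those under 200 bp and 1.58% (28 of 1771) of those of 400 bp or more, and AP-1 letters in 12.6 and 41.0%. The 181 members with CTCF letters had a median width of 190 bp and a median score of 670, and 2.76% of them reached the ceiling. The member beyond Ctgf shown above is of this kind. With shared regions weighted to the score classes of the members, CTCF letters were rarer in members, with a difference of -6.3 points (-9.8 to -3.6).

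Members with CTCF letters were also placed differently along their genes. Upstream members had CTCF letters in 3.67% (91 of 2477) and downstream members in 7.40% (90 of 1216), a difference of -3.7 points (-5.5 to -2.2). In the shared regions the values were 4.34 and 4.52% (-0.2 points, -2.0 to 1.4). AP-1 letters in members were more frequent upstream, at 37.9 against 34.0% (3.9 points, 0.6 to 7.1). No motif difference by distance was resolved. Members within 10 kb and members at 10 to 50 kb differed in AP-1 share by -2.7 points (-6.1 to 0.7), in SMAD share by 0.6 points (-2.9 to 4.1) and in CTCF share by 0.3 points (-1.1 to 2.0).

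CTCF and AP-1 letters lay near the middle of the members, and SMAD letters only weakly so. The median distance of a match from the centre was 18 bp for CTCF, 48 bp for AP-1 and 86 bp for SMAD, over 183, 1578 and 2181 matches. In the shared regions they were 47.5, 66 and 99 bp. Within 50 bp of the centre lay 76.5% (69.9 to 82.1%) of CTCF, 51.5% (49.1 to 54.0%) of AP-1 and 31.2% (29.3 to 33.2%) of SMAD matches in members. For SMAD in shared regions that share was 25% (22.7 to 27.4%). The centres of 11% of shared regions, and of 2.27% of members, fell between merged intervals, and about the centre of the highest-scoring interval instead the SMAD difference was 7.9 points (5.5 to 10.3).

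**Figure D3:**
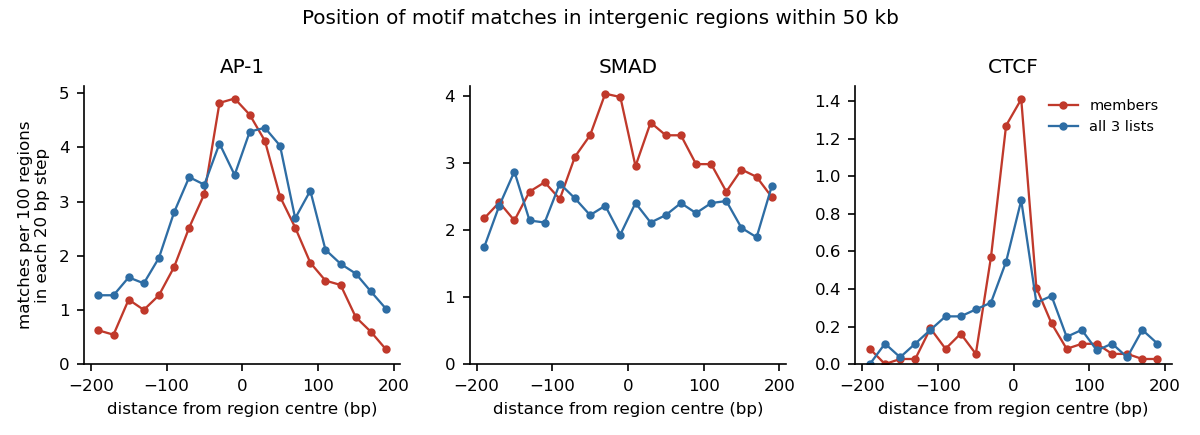
Matches per 100 regions in 20 bp steps against distance (bp) from the region centre, for AP-1, SMAD and CTCF letters in members (red) and in intergenic regions within 50 kb in all 3 lists (blue). SMAD matches of members are only somewhat denser about the centre (31.2% within 50 bp) while the blue SMAD line is flat, and the CTCF peak is the sharpest (76.5% within 50 bp in members).

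Of 10 further motifs, 4 were less frequent in members than in shared regions, and for 6 the interval of the difference held 0. KLF/SP letters (GGGCGG) were in 7.69 against 17.4% (-9.7 points, -11.4 to -8.1), the GC-rich SMAD letters (GGCGC or GGCCG) in 23.9 against 36.2% (-12.3 points, -14.5 to -10.0), and ETS letters (CCGGAAGT) in 0.596 against 1.2% (-0.6 points, -1.1 to -0.1). Members had the lower GC content, and its part in these differences was not tested. RUNX letters (AACCACA) were in 13.1 against 15.0% (-2.0 points, -3.7 to -0.3). TEAD letters (ACATTCC), bound by the partners of YAP, were in 10.1 against 10.3%, FOX letters (TGTTTAC) in 8.29 against 9.01% and CEBP letters (TTGCNNAA) in 18.7 against 18.9%, and the interval of each difference held 0. Moved windows around members had TEAD letters in 5.46%, RUNX in 9.70% and FOX in 5.20%. GRHL letters (AACCNGTT), bound by epithelial grainyhead factors, were in 2.92% of members and 2.79% of moved windows. SNAI/ZEB letters (CAGGTG) were in 25.1% of members and 26.2% of moved windows, and NFI letters (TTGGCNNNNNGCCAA) in 0.190 and 0.0284%. All were searched on both strands, and the CTCF and SNAI/ZEB letters can overlap, as can AP-1 and SMAD. Finding or missing these letters says nothing of whether a factor was bound.

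Compared with TGFβ-only regions at other positions, the members had fewer AP-1 letters than those far from genes, while a difference in SMAD letters was not resolved. Beyond 50 kb from a TSS, AP-1 letters were in 43.8% (-7.1 points, -9.4 to -4.8) and SMAD letters in 43.4% (-0.9 points, -3.2 to 1.4). Inside genes AP-1 letters were in 38.5% (-1.9 points, -3.9 to 0.1) and SMAD letters in 44.0% (-1.5 points, -3.6 to 0.5). CTCF letters were more frequent in members than inside genes (3.4%; 1.5 points, 0.7 to 2.4) and beyond 50 kb (2.24%; 2.7 points, 1.8 to 3.5). At the score ceiling the AP-1 share of members no longer lay below that of the distant regions, at 59.1 against 56.2% (2.9 points, -4.4 to 10.1). Against regions shared with the 10 min list, the members had more SMAD letters (42.5 against 35.5%, 7.0 points, 4.2 to 9.8) and more TEAD letters (10.1 against 7.16%, 2.9 points, 1.3 to 4.4). Against the 432 regions of the same position shared with the vehicle list, a SMAD difference was not resolved (42.5 against 37.7%, 4.8 points, -0.1 to 9.5).

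**Figure D4:**
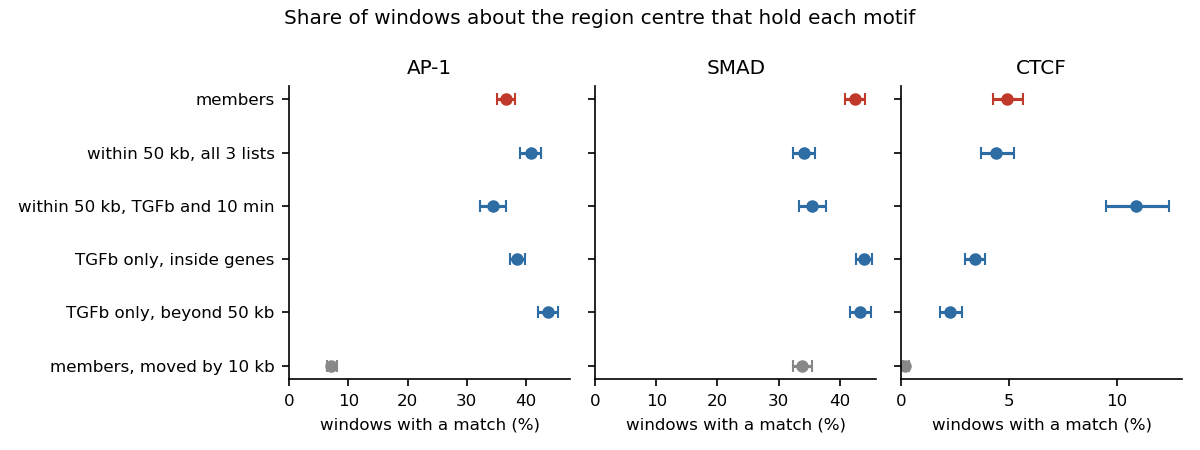
Share (%) of 401 bp windows with AP-1, SMAD or CTCF letters in the members (red), 4 other classes of TGFβ 2 h list regions (blue) and windows 10 kb from the members (grey), with 95% Wilson intervals. SMAD shares of the 3 TGFβ-only classes (42.5, 44.0 and 43.4%) lie above those of the regions in all 3 lists (34.1%) and of the moved windows (33.8%).

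The members had 2977 nearest genes, 13.3% of 22350 protein-coding genes. Of these, 2408 had 1 member, 454 had 2, 87 had 3, 24 had 4 and 4 had 5. For 62.1% the members were the only intergenic regions of the TGFβ 2 h list within 50 kb, and 26.4% also had a shared region. The promoter of the nearest gene was open (a region at a TSS of the gene) in the vehicle list for 48.0% of members and 54.7% of shared regions (-6.7 points, -9.2 to -4.2). It was open in the TGFβ but not the vehicle list for 9.99 and 9.44% (0.5 points, -0.9 to 2.0), and in none of the lists for 40.8 and 34.3% (6.5 points, 4.1 to 8.9). Of all protein-coding genes, 41.0% were open in the vehicle list, 7.24% in the TGFβ but not the vehicle list and 50.4% in none. A promoter called in the TGFβ but not the vehicle list was found for 7.84% of TGFβ-only regions beyond 50 kb. That was 2.2 points less than for members (0.8 to 3.5). For TGFβ-only regions inside genes it was 10.5% (members minus these -0.5 points, -1.8 to 0.7). The promoter was open in the vehicle list for 48.8% of those beyond 50 kb (-0.8 points, -3.1 to 1.6) and 55.6% of those inside genes (-7.5 points, -9.6 to -5.5). It was open in none of the lists for 42.5% (-1.7 points, -4.0 to 0.6) and 32.5% (8.2 points, 6.3 to 10.2). Members thus differed in these 2 measures from TGFβ-only regions inside genes, and no difference from those beyond 50 kb was resolved.

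The genes with most members were Bhlhe40, Col6a3, Cxxc5 and Hes1 with 5 each, followed by Add2, the first by symbol of the 24 with 4. Bhlhe40 encodes a transcriptional repressor of the circadian and stress responses. Its members lay 22080 bp upstream and 16645, 36719, 43646 and 45238 bp downstream, with scores of 782, 618, 792, 1000 and 1000. The 3 farthest downstream each held AP-1 and SMAD letters and the other two neither. The promoter of Bhlhe40 was open in all 3 lists, and regions within 60 kb of the gene numbered 4 in vehicle, 11 after TGFβ and 5 at 10 min. The gene was picked for its 5 members, which the rule keeps out of the other lists, so this order is in part fixed by the choice. The whole lists had the same order, with 19648, 38532 and 26732 regions.

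Col6a3, which encodes a chain of the microfibrillar collagen VI, had no shared intergenic region. A region at one of its annotated starts was called in the TGFβ list only. That start is not the outer 5′ end of the gene, from which the nearest centre in the TGFβ list was 3501 bp away. The 5 members of Col6a3 were 22924 bp upstream and 19063, 30445, 34885 and 43554 bp downstream of the nearest of its annotated starts. The 4 downstream ones lie beyond its 3′ end. Their scores were 684, 697, 548, 542 and 1000. The farthest downstream had 2 AP-1 matches, the next 2 had 1 each, and none of the 5 had SMAD letters. Around Hes1, the gene of a repressor downstream of Notch, members lay 21245 and 8806 bp upstream and 24261, 33009 and 45256 bp downstream, the last with a score of 1000 and 2 SMAD matches. The 3 members downstream of Hes1 had no region of the vehicle or 10 min list among them. The 4 members of Add2, the gene of a cytoskeletal adducin, were all upstream, at 25807, 23550, 12363 and 2966 bp, and each held SMAD letters. Cxxc5, which encodes a zinc-finger protein, lies on chromosome 18 and had members 18970, 14483 and 5998 bp upstream and 35771 and 43635 bp downstream, with no region of any list at its promoter.

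**Figure D5:**
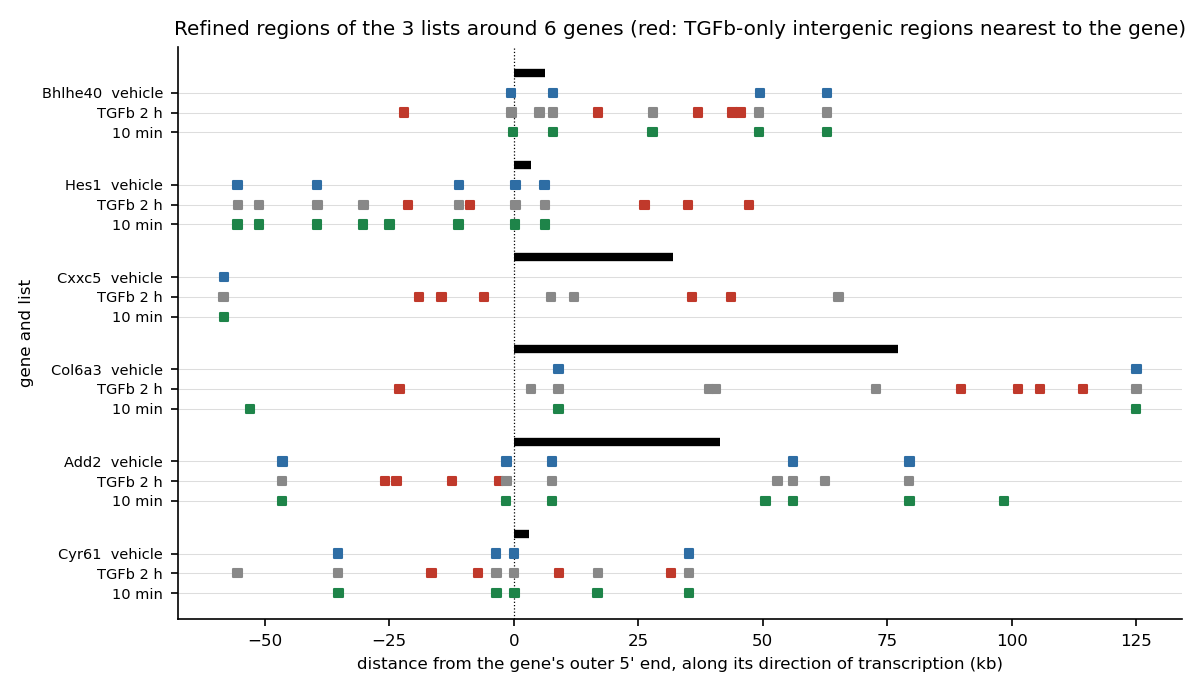
Centres of refined regions in the vehicle, TGFβ 2 h and 10 min lists (rows) around 6 genes, by distance (kb) from the outer 5′ end of the gene (black bar: gene body). Red squares are members nearest to that gene, grey squares other regions of the TGFβ list, blue and green squares regions of the vehicle and 10 min lists. Red squares have no counterpart in the vehicle or 10 min rows, as the rule requires, and 3 of them follow Hes1 and 4 follow Col6a3.

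Genes of 11 lists chosen for TGFβ signalling and its responses were asked how often they were the nearest gene of a member, against 13.3% of all protein-coding genes. The lists were drawn up with earlier results of these data known, so the counts are a description. Together 73 of 216 listed genes had a member (33.8%). In lists of neuronal and liver genes, which served as contrast, 2 of 18 (11.1%) and 4 of 18 (22.2%) had one. The second measure is how many of the intergenic regions near listed genes were members, against 43.0% of all such regions, and it separates genes with many regions of every kind from genes whose regions were mostly called after TGFβ alone. By this measure the 11 lists together had 111 of 273 (40.7%, 35.0 to 46.6%), no higher than the general share. The few regions near contrast genes gave 3 of 6 for neuronal (50%, 18.8 to 81.2%) and 5 of 8 for liver genes (62.5%, 30.6 to 86.3%), and both intervals overlap those of all 11 lists.

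Immediate-early and feedback genes of MAPK signalling came first, with a member at 16 of 23 (69.6%). Their regions were members at close to the general rate, 27 of 61 (44.3%, 32.5 to 56.7%), and 21 of the 23 genes had an intergenic region of some kind. Klf6, a zinc-finger factor, had a member of 1483 bp 9615 bp downstream. Phlda1 had one 21941 bp downstream and Ier5, another immediate-early gene, one 6104 bp downstream, all 3 at a score of 1000. Ier3, a survival factor, had 4 upstream members between 18918 and 37610 bp. Members were also found near the ERK phosphatases Dusp4, Dusp5, Dusp6 and Dusp10, the inhibitors Spry2 and Spred1, and the EGF receptor ligands Areg, Ereg and Hbegf. All 16 genes had an open promoter in all 3 lists, as had most of the list, with 21 of 23 open in the vehicle list.

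Integrins, the matrix receptors, had members at 7 of 12 genes (58.3%), and 9 of their 16 regions were members (56.2%, 33.2 to 76.9%). The 9 all lay upstream, between 3671 and 36779 bp. The rule removes downstream centres that fall inside a gene, and 67.1% of all members were upstream. Itga2 had one of 934 bp with 5 summits 13785 bp upstream, Itgb1 one of 726 bp with 5 summits 18718 bp upstream, and Itga1 one of 284 bp 18596 bp upstream, each at a score of 1000. Itga2, the collagen-binding α2 chain, was the only one of the 7 whose promoter was missing from the vehicle list. The interval of the region share holds 43.0%, so 16 regions do not set the integrins apart from other genes.

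Mesenchymal and contractile genes had members at 7 of 19 (36.8%), and 10 of their 17 regions were members (58.8%, 36.0 to 78.4%). Myh9, non-muscle myosin heavy chain, had a member 14436 bp upstream at a score of 1000. Zyx, a focal adhesion protein, had one 8368 bp upstream and Cdh2, N-cadherin, one 12930 bp upstream. Genes of YAP and TEAD factors and their targets had members at 7 of 16 (43.8%), with 15 of 29 regions (51.7%, 34.4 to 68.6%). Cyr61 had 4, at 16518 and 7147 bp upstream and 9126 and 31501 bp downstream, with scores of 990, 951, 908 and 995. Ctgf had 3 and Amotl2, an angiomotin, also 3.

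In the TGFβ pathway itself, ligands, receptors and Smads had members at 8 of 29 genes (27.6%, 10 of 27 regions) and feedback genes at 4 of 14 (28.6%, 6 of 18 regions). Smad5 had 3, including the one at the score ceiling shown above, and the type I receptor gene Tgfbr1 had one 2064 bp upstream. Inhbb, an activin chain, had one 17482 bp downstream with a score of 932, and Tgfb2 one 29888 bp downstream with a score of 877. Among inhibitors, Fst, which sequesters activin, had members 35091 and 31679 bp upstream, and Smad7, the inhibitory Smad, 42674 and 4157 bp upstream. Skil, a SMAD co-repressor, had one and so did Grem1, a BMP antagonist. These shares of regions, 37.0% and 33.3%, lay below the general 43.0% with wide intervals (21.5 to 55.8% and 16.3 to 56.3%).

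Of the regions near transcription factors of the mesenchymal transition, 4 of 9 were members (44.4%, 18.9 to 73.3%). These factors had members at 2 of 17 genes (11.8%), Snai1 and Snai2. Snai1 had them 5494 and 31897 bp downstream, the first 1372 bp wide with a score of 818. Snai2 had them 1831 bp upstream and 30484 bp downstream with scores of 681 and 974. AP-1 genes had members at 4 of 16 (25%), namely Fos, Jun, Atf3 and Batf3. Of the regions near AP-1 genes, 6 of 18 were members (33.3%, 16.3 to 56.3%), below the general 43.0% with an interval that holds it. The members of Fos lay 21948 bp upstream and 23025 bp downstream, with scores of 810 and 745, and that of Atf3 6708 bp upstream with a score of 803.

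Matrix and protease genes had members at 9 of 34 (26.5%), and 11 of their 35 regions were members (31.4%, 18.6 to 48.0%). Lox, which cross-links collagen, had the second widest of all members, 1718 bp with 6 summits and a score of 1000, 6324 bp upstream of a promoter in none of the lists. Adamts1 and Mmp13 had members at the ceiling, whose DNA is shown above, and Mmp13 had 2 others 10715 and 32171 bp upstream. The widest member of all was chr6:41450737-41452554, 1818 bp and 20140 bp upstream of Prss2, a trypsinogen gene.

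Epithelial junction genes had members at 5 of 22 (22.7%), and 8 of their 21 regions were members (38.1%, 20.8 to 59.1%). Epcam, an epithelial adhesion protein, had one 25985 bp upstream with a score of 886, and Pkp1, a desmosome protein, had 3 between 6788 and 19379 bp upstream, the highest at 886. Genes of the growth arrest had members at 4 of 14 (28.6%, 5 of 22 regions, the lowest region share at 22.7%). The interval of that share, 10.1 to 43.4%, holds the general 43.0%. Id3, an inhibitor of differentiation, had one 32805 bp upstream with a score of 868. Myc had one 1876 bp upstream and one 42519 bp downstream, with scores of 672 and 612. In the contrast lists, Snap25, a synaptic protein, had one at a score of 1000 31102 bp upstream, and Hnf4a, a liver regulator, one 25421 bp downstream with a score of 806.

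The line was checked at promoters. Of 6 epithelial genes, the keratins Krt8, Krt18 and Krt19 had an open promoter in every list, Cdh1 in the 10 min list only, and Epcam and Cldn7 in none. None of 4 haematopoietic or 5 fibroblast genes had one in any list, and of 4 endothelial genes Kdr had one in the TGFβ list. Refined regions numbered 19648 in vehicle, 38532 after TGFβ and 26732 at 10 min. The study lists fewer mapped and filtered reads for the TGFβ 2 h library than for the vehicle library in complete medium. How far depth, library quality or peak calling contributed to regions present in the TGFβ list alone was not tested.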

How the data were processed

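ATAC-seq of 4 samples of NMuMG cells is represented by 3 deposited peak lists, 1 each for vehicle and TGFβ 2 h in complete medium and 1 for both starved samples. Per the study's methods, the authors used the ENCODE ATAC-seq pipeline: alignment to mm9, peak calling with macs2 (MACS2 2.1.2 in the submitters' processing notes) and retention by the irreproducible discovery rate. A shift of read ends for Tn5 is described for footprints and for no peak call. The deposited column used is the authors' score, a scaled irreproducible discovery rate from 540 to 1000, with 1 line per summit. It ranks peaks within a list. What served as replicates behind the lists is not given in the sources used here for each list, and the design text speaks of duplicates while the labels give 1 sample per condition.

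Intervals under 150 bp were dropped and neighbours with a gap under 1000 bp merged. All intervals lie inside the chromosomes of NCBIM37 (mm9), and genes were taken from GENCODE vM1, annotated on the same build, with any overlap of 1 bp. Distances run from the region centre to the nearest protein-coding transcript start. Motifs were searched on both strands in 401 bp of the reference with Python 3.11.15 and numpy 2.4.6. Code was tested on simulated sequences with planted motifs and toy lists. Moved windows lay 10 kb downstream in coordinate, overlapped no region of any list and held no unknown base, which left 3517 for the members.

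The members, gene lists and tests were chosen with earlier results of these data known. Named members were, per gene list, the 3 with the highest score, then the widest. Also named were the 5 genes with most members, the 3 widest members (the third is not reported here) and those at the limits of the rule. Sequences shown by rule were members at the highest score near listed genes with both AP-1 and SMAD letters by gap, and the widest 2 with neither, with chromosome 18 left out. There the Lox member, wider than both, had neither in the 401 bp searched about its centre. Other listed genes, and the sequences said to be so, were named after their values were seen. Of 254 listed entries, 252 were found in the annotation, Ldlrad4 and Ajuba being the others. The marker Spi1 was not found under that symbol. The lists hold no count of reads, and the read totals per library that the study gives were not used here, so no test between conditions was run. Score classes, weighting to them and leaving out windows with 4 or more SMAD matches were chosen after seeing the data.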

Additional observations from a re-analysis of the deposited data

How the results depend on the processing

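No paired analysis was possible because there was a single list for a condition, and no replicate could be left out. Of 128 alternative values of 8 differences, 104 kept their sign and whether the interval held 0, and 8 of 12 alternative numbers of members stayed within 1.5 times. The SMAD difference from shared regions stayed above 0 in all settings run, from 5.3 to 16.4 points. The number of members, 3693, was 1766 at a minimum width of 300 bp, 1542 with each list limited to its median score, 359 at the highest score and 2433 within 25 kb, all by fewer regions entering.

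The AP-1 difference from shared regions (-4.2 points) was -1.3 at 300 bp and -0.5 within 100 bp of the centre, with intervals holding 0. It turned to 5.0 with lists limited to their median score, 13.4 at the highest score and 8.7 when weighted by score. The CTCF difference (0.5 points) was 1.2 at 300 bp and 1.5 at the median score, with intervals above 0, -1.0 at the highest score, -0.4 within 500 bp of the centre and -6.3 weighted by score. Against TGFβ-only regions inside genes, the AP-1 difference (-1.9 points) had an interval that no longer held 0 with touching intervals merged only (-2.3), with absence judged by the centre (-2.2), within 25 kb (-3.1) and about the highest-scoring interval (-2.2), as had the SMAD difference (-1.5 points) within 25 kb (-2.5). At the highest score this AP-1 difference was 2.0, with an interval holding 0. The AP-1 difference from regions beyond 50 kb (-7.1 points) turned to 2.9 at the highest score, and the SMAD difference (-0.9 points) to 1.2 within 500 bp, both with intervals holding 0. The upstream difference (-2.4 points) was -0.6 at 300 bp, -2.2 with absence judged by the centre, -2.7 at the highest score, -1.5 within 25 kb, -1.0 with outer gene starts only and 3.3 at the median score. The cause was not tested. Depth, replicates and library quality behind each list limit every statement about absence from a list.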
